A study of Mus musculus with 11 samples.

Results

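Genes known to drive a cochlear precursor into the hair cell (HC) fate and to keep it there were followed through development. They were Atoh1, Pou4f3, Gfi1, Lhx3, Barhl1 and Rbm24, chosen by name as 6 of the 24898 genes in the tables, and all 6 were present in the table of every age. The cells came from wildtype CD1 mice whose cochlear epithelium was freed with thermolysin, dissociated and captured on the 10x Chromium system at embryonic day 14 (E14), embryonic day 16 (E16), postnatal day 1 (P1) and postnatal day 7 (P7), with 2, 3, 4 and 2 libraries. Each library pooled cochleae of several embryos or pups of either sex, so that a library is 1 collection and not 1 animal, and nothing in the design separates age from the day of collection. The tables held 30634 cells, where the design text speaks of over 27000.

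Mechanosensory HCs turn sound into signals to the auditory nerve and arise from prosensory precursors shared with the supporting cells around them. Atoh1 is the basic helix-loop-helix factor that starts the fate, and it binds E-box motifs. Notch signalling between neighbours shuts it off in the cells that become supporting cells. Pou4f3 (POU homeodomain), Gfi1 (zinc finger repressor), Lhx3 (LIM homeodomain) and Barhl1 (Bar-class homeodomain) act after Atoh1 in HC differentiation or survival, and loss of Pou4f3 or Gfi1 kills HCs. Rbm24 is not a transcription factor but an RNA-binding protein that acts on splicing in muscle and in HCs.

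HCs were found without use of the 6 genes. A cell was gated as an HC when Myo6, the unconventional myosin of the HC body, and Ccer2 together held at least 3 unique molecules (UMIs) and at least 1000 CPM, where CPM scales each cell to 1000000 UMIs. The gate took 1929 cells (E14 60, E16 653, P1 1075 and P7 141). Libraries held between 3828399 and 23523802 UMIs, and the median gated cell of the 4 ages in turn held 4850, 3381, 6613 and 6771 UMIs, against 3389, 2679, 4824 and 4623 in the other cells. Ccer2 carried the gate up to P1 (6618 ± 1268 CPM in gated cells at E14, SD, n = 2) and was down to 121 ± 24.5 CPM at P7, where Myo6 (1486 ± 5.72 CPM) decided.

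The gate was compared with a list of 7 other HC genes (Myo7a, Pvalb, Cib2, Otof, Acbd7, Rprm and Cd164l2), with at least 5 UMIs and 2000 CPM as a second definition of an HC. At E16 and P1, 520 of 535 and 1039 of 1054 listed cells were inside the gate, so that 520 of the 653 gated cells of E16 and 1039 of the 1075 of P1 were on the list. At E14 28 of the 49 listed cells were inside the gate, so that only 28 of the 60 gated cells were on the list. The list genes ran from 12 ± 17.0 CPM (Myo7a) and 18.1 ± 25.6 CPM (Otof) to 667 ± 148 CPM (Cib2) and 1050.3 ± 36.7 CPM (Rprm) in the 60 gated cells. The 21 listed E14 cells outside the gate held Atoh1 at 26.4 CPM and Pou4f3 at 123 CPM. At P7 the gate held 134 of the 294 listed cells, so that "all other cells" of that age contain HCs. Gated cells with at least 3 UMIs of another cell type's markers made up 40.0, 31.2, 68.8 and 39.0% of the gate from the youngest age to the oldest, and values without them are given where a call changes. Without them, 13 and 23 cells were left in the E14 libraries and 39, 21, 27 and 248 in those of P1. A call lost in this setting cannot be told apart from the loss of cells. The markers include Fgfr3 and Prox1, which the paper reports in outer HCs at E14 and E16. They also include markers of roof, interdental, glial, mesenchymal, neuronal and blood cells. The share was not split by marker, and whether such cells are mixtures was not tested. In P1 replicates 1, 2, 3 and 4 it was 84.0, 86.8, 88.0 and 44.6%. A cell barcode was found in more than 1 library of the same age 11, 29, 84 and 9 times, and 20 gated cells carried such a barcode. P1 replicate 1 had the lowest gated level of each of the 6 genes among the P1 libraries, with the deepest gated cells (median 9496 UMIs). Some of the P1 differences and the P1 detection shares, though not the P1 bins and combinations, are also given without it.

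The upstream sequences of Barhl1 and Lhx3 are shown because these genes had the most alike profiles of the 6 and because Atoh1 binds E-boxes. Both genes lie on the minus strand of chromosome 2 of GRCm38, Lhx3 at chr2:26200212-26208289 and Barhl1 at chr2:28907679-28916668, and both are protein coding. The 250 bases before each annotated RefSeq start (GRCm38.p6) were searched on both strands for CAGCTG and for CAGATG, which reads CATCTG on the other strand. Of all 32851 such mouse windows, 13.0% held CAGCTG, 14.4% held CAGATG and 25.5% held either. Pou4f3 was left out of this search, so its upstream sequence was not tested. Of the 8 windows of the other 5 genes, 3 held a match. These 3 are printed 5′ to 3′ on the gene's strand with the E-box in capitals. They cover chr2:28916669-28916918 and chr2:28912496-28912745 for Barhl1 and chr2:26206576-26206825 for Lhx3.
Barhl1, first start: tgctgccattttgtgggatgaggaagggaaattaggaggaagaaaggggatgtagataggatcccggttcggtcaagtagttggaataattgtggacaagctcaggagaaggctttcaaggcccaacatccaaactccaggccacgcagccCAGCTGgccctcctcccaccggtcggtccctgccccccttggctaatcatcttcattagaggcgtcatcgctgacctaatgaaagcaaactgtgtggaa
Barhl1, second start: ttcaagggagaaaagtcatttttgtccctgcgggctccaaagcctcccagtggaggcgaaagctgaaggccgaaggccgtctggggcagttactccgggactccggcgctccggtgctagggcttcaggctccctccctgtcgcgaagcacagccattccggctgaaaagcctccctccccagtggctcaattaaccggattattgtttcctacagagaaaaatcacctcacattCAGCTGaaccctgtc
Lhx3, second start: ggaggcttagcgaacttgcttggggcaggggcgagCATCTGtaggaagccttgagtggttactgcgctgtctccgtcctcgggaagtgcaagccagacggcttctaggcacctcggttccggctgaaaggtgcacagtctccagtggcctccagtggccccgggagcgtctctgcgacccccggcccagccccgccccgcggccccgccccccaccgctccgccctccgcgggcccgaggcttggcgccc
The Barhl1 windows each hold a CAGCTG, 99 and 15 bases before the start, and the Lhx3 window holds a CATCTG 215 bases before it. The windows of Atoh1 (chromosome 6), Gfi1 (chromosome 5), Rbm24 (chromosome 13) and the first start of Lhx3 hold neither set of letters. A match is a description of the sequence and no evidence of binding.

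Atoh1, the gene that starts the fate, showed no change that passed the test from E14 to P1 with this gate and was almost gone from gated HCs by P7. Its level in the 2 libraries of E14 was 967 and 526 CPM, a mean of 747 ± 312 (SD, n = 2). The 3 libraries of E16 held 566, 600.4 and 1183 CPM (783 ± 347), and the 4 of P1 held 376, 727, 599 and 734 CPM (609 ± 167). At P7 the values were 11.5 and 33.7 CPM (22.6 ± 15.7). The libraries of the first 3 ages overlapped and those of P7 lay below all of them.

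Pou4f3, the POU factor on which HC survival depends, was high in gated cells of every age, and no change between successive ages passed the test with this gate. With a gate on Myo6 alone, which took 144 cells at E14 with 0.354 members per cell on average after thinning, Pou4f3 was higher at E16 than at E14 (1.51 on the log2(CPM + 10) scale, limma adjusted p = 0.00749), as was Atoh1 (2.04, adjusted p = 0.0041). It was measured at 1641 and 1332 CPM in the E14 libraries (1486 ± 218) and at 1030.1, 1254 and 1525 CPM in those of E16 (1270 ± 248). The P1 libraries held 1134, 1654, 1279 and 1763 CPM (1457 ± 299), and those of P7 held 1508 and 1307 CPM (1407 ± 142). The ranges of all 4 ages overlapped.

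Lhx3 and Barhl1, the LIM and Bar homeodomain genes, were on average highest at P1, lower at E16 and P7 and lowest at E14. Barhl1 was at 33.4 and 19.3 CPM at E14 (26.4 ± 9.99) and at 251, 188 and 214 CPM at E16 (218 ± 31.5). It was at 287, 582, 529 and 553 CPM at P1 (487 ± 136), and back at 83.9 and 93.9 CPM at P7 (88.9 ± 7.03). No library of one age reached into the range of another. Lhx3 was at 36.8 and 42.6 CPM at E14 (39.7 ± 4.16), then 139.8, 114 and 133 CPM in the E16 libraries (129 ± 13.4). In the P1 libraries it was 141, 272, 254 and 366 CPM (258 ± 92.5), and by P7 51.6 and 65.5 CPM (58.6 ± 9.83). P1 replicate 1 lay just above the E16 libraries for Lhx3, and the other P1 libraries well above them.

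Gfi1, the zinc finger repressor, and Rbm24, the RNA-binding protein, were the members that built up and then held. Gfi1 was at 30.5 and 14.1 CPM at E14 (22.3 ± 11.6), then 39.8, 45.6 and 59.1 CPM in the E16 libraries (48.2 ± 9.90), 129, 246, 199.9 and 318 CPM in those of P1 (223 ± 79.3) and 218 and 175 CPM in those of P7 (196 ± 30.4). Rbm24 was at 77.5 and 65.9 CPM at E14 (71.7 ± 8.18), then 159, 122 and 129 CPM in the E16 libraries (136 ± 19.6), 169.6, 263, 246 and 372 CPM in those of P1 (263 ± 83.3) and 279 and 349.6 CPM in those of P7 (314 ± 50.1). For both genes the P7 libraries lay inside the range of P1. The E14 values rest on few molecules, 9 UMIs of Gfi1, 12 of Lhx3, 12 of Barhl1 and 31 of Rbm24 over 60 cells.

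**Figure D1:**
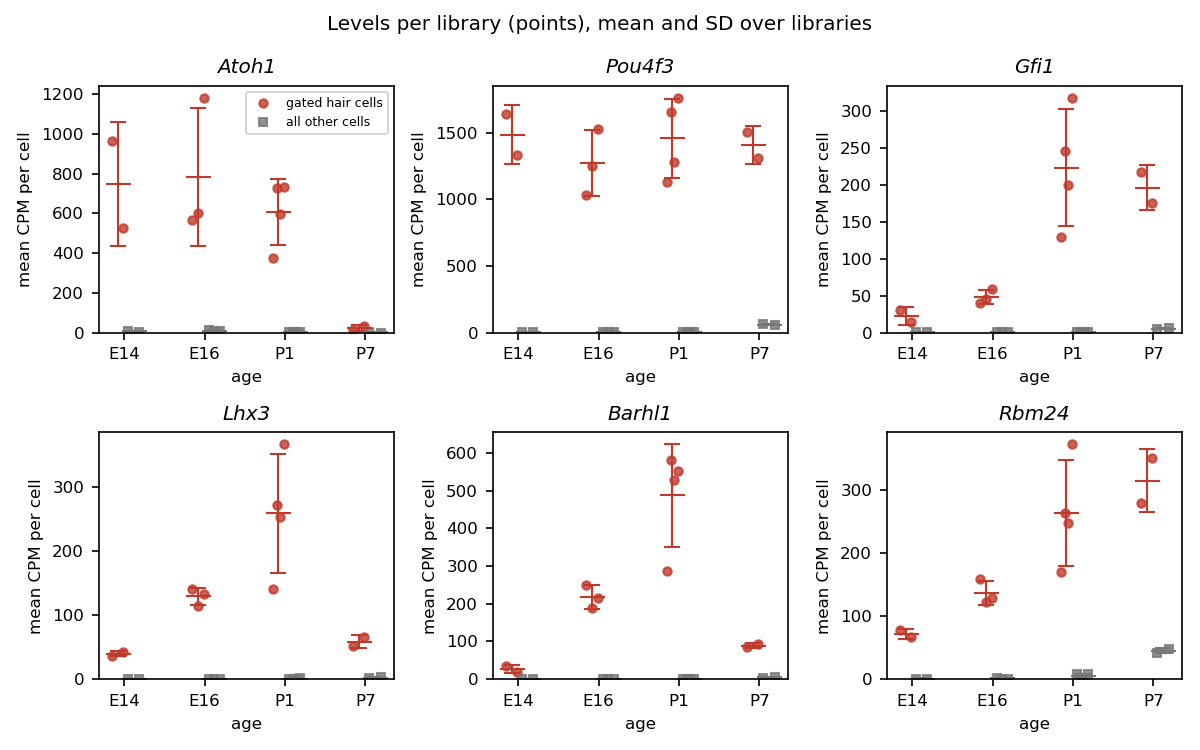
Level of each gene in CPM (y axis, 1 panel per gene) at each age (x axis) in gated HCs and in all other cells; points are libraries, with the mean and SD over libraries. Atoh1 falls to 22.6 CPM at P7, Pou4f3 stays between 1270 and 1486 CPM on average, Barhl1 and Lhx3 peak at P1, and the P7 libraries of Gfi1 and Rbm24 lie inside the range of P1.

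The first comparison asked, at each age, whether each gene was higher in HCs and at what level it was found in other cells. Outside the gate the genes were at most 11.1 CPM in any library from E14 to P1, and Lhx3 had no UMI at all in the other cells of E14. At P7, Pou4f3 was at 60.9 and 57.7 CPM outside the gate, and at 1.08 ± 0.498 CPM in the cells that also failed the HC list, against 1178 CPM in listed HCs that the gate had missed. Rbm24 differed from this, with 41.9 and 47.7 CPM outside the gate at P7 and still 32.8 ± 2.29 CPM outside both definitions. In Otoa-positive cells, which mark the interdental region, Rbm24 was at 40.8 CPM at P7 and Atoh1, Gfi1, Lhx3 and Barhl1 had no UMI.

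At E14, 5 of the 6 genes were higher in gated HCs than in all other cells (limma, Benjamini-Hochberg adjusted p), where 3.81% of all genes tested were called higher and 4.34% lower. Genes were tested from a mean of 10 CPM over both arms. Outside the gate all 6 were at most 9.11 CPM at E14, so each entered only through its gated level. The filter thus largely fixed their direction, and the shares of all genes are no like background. It was the same at the later ages. Atoh1 was higher by 5.47 ± 0.27 (SE) on the log2(CPM + 10) scale (adjusted p = 3.69e-13), Pou4f3 by 6.57 ± 0.24 (adjusted p = 7.07e-16) and Rbm24 by 2.93 ± 0.44 (adjusted p = 4.6e-05). Lhx3 (2.31 ± 0.49, adjusted p = 0.00285) and Barhl1 (1.82 ± 0.53, adjusted p = 0.0317) passed, and Gfi1 did not (1.57 ± 0.54, adjusted p = 0.0786). The 10 CPM added on this scale limits the difference a gene of low gated level can reach, at every age. The sizes of these differences thus do not rank the genes by how far they were restricted to HCs. Lhx3, with no UMI outside the gate at E14, had a smaller difference than Atoh1, at 9.11 and 3.99 CPM there. Without the gated cells that also carried another cell type's markers, Lhx3 (adjusted p = 0.282) and Barhl1 (adjusted p = 0.111) no longer passed at E14. Both also missed the threshold with the HC list as the gate (adjusted p = 0.0598 and 0.38) or a pseudocount of 1 (adjusted p = 0.141 and 0.309), and with Myo6 alone only Atoh1 and Pou4f3 passed the filter on low values, both called. Gfi1 was called with Ccer2 alone (1.42, adjusted p = 0.0232). From E16 on, all 6 genes were called higher in HCs in every comparison, by 2.46 (Gfi1) to 6.41 (Pou4f3) at E16. The range was 4.16 (Rbm24) to 6.88 (Pou4f3) for P1 and 1.53 (Atoh1) to 4.35 (Pou4f3) for P7. The share of all genes called higher was 18.7%, 39.7% and 29.4% at these ages and the share called lower 18.6%, 28.5% and 25.2%, and the median over all genes at P1 was 0.12. Without P1 replicate 1 all 6 were called at P1, by 4.42 (Rbm24) to 7.04 (Pou4f3). At P7 the difference for Atoh1 lost its call with a gate on Ccer2 alone (1.47, adjusted p = 0.297), which held only 8 and 12 cells there. These fits give 2 libraries per arm at E14 and P7.

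Between successive ages, Barhl1 rose from E14 to E16, Barhl1, Gfi1, Lhx3 and Rbm24 rose from E16 to P1, and Atoh1, Lhx3 and Barhl1 fell from P1 to P7. Whether 1 gene rose before another was not tested. From E14 to E16, 1 of the 6 genes was called, where 2.14% of all genes rose and 0.536% fell. Barhl1 rose by 2.68 ± 0.35 (limma, adjusted p = 0.000224). Lhx3 was 1.46 ± 0.40 higher and just missed the threshold (adjusted p = 0.0554), and it passed without P1 replicate 1 or 4, which only enter the shared estimate of the spread (adjusted p = 0.00812 and 0.0206). Without the gated cells that carried other markers it was called as well (2.25, adjusted p = 0.0394). Atoh1 (0.07 ± 0.40) and Pou4f3 (-0.23 ± 0.26) did not pass, nor did Gfi1 (0.92 ± 0.41) and Rbm24 (0.83 ± 0.35). These calls depend on the gate: with Myo6 alone 5 of the 6 genes were called higher at E16, all but Gfi1, and Pou4f3 changed sign, and with Ccer2 alone Barhl1 and Lhx3 were called.

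From E16 to P1, 4 of the 6 genes rose, where 10.8% of all genes rose and 6.56% fell. Gfi1 rose most of the 6, by 1.94 ± 0.28 (limma, adjusted p = 8.8e-05), followed by Barhl1 (1.09 ± 0.25, adjusted p = 0.00554), Lhx3 (0.89 ± 0.27, adjusted p = 0.0299) and Rbm24 (0.86 ± 0.25, adjusted p = 0.0205). Atoh1 (-0.32 ± 0.31, adjusted p = 0.521) and Pou4f3 (0.19 ± 0.21, adjusted p = 0.58) did not pass. Without P1 replicate 1 the 4 rises were 2.17, 1.32, 1.15 and 1.05. The call of Lhx3 was lost without any 1 of the 3 E16 libraries or of P1 replicates 2, 3 and 4 (adjusted p = 0.0595 to 0.144), and that of Rbm24 without E16 replicate 2 or 3 (adjusted p = 0.11 and 0.0638). With the HC list in place of the gate, Lhx3 (0.72, adjusted p = 0.095) and Rbm24 (0.74, adjusted p = 0.052) did not pass either, nor did they without the gated cells that carried other markers (0.68, adjusted p = 0.238, and 0.80, adjusted p = 0.117). With a gate on Ccer2 alone these 2 genes were not called (adjusted p = 0.0992 and 0.1), and with Myo6 alone Gfi1 was the only one called, with Barhl1 at 0.94 (adjusted p = 0.0656).

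From P1 to P7, 3 of the 6 genes fell and none rose, where 6.37% of all genes rose and 9.03% fell. Atoh1 fell by 4.28 ± 0.36 on the log2 scale (limma, adjusted p = 9.85e-08), Barhl1 fell by 2.27 ± 0.30 (adjusted p = 2.31e-05) and Lhx3 fell by 1.89 ± 0.32 (adjusted p = 0.00038). Pou4f3 (-0.03 ± 0.24), Gfi1 (-0.12 ± 0.33) and Rbm24 (0.30 ± 0.29) did not pass. Each of the 3 was called without any 1 library, with differences of -4.80 to -3.78 for Atoh1. The P7 gate rests on Myo6 and the earlier gates mostly on Ccer2. A gate on Ccer2 alone, with only 8 and 12 cells in the P7 libraries, left the fall of Lhx3 uncalled (-1.94, limma adjusted p = 0.0782).

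The other genes of the pathway, from lists chosen with earlier results of these data known, gave the setting of these changes. Of 16 tested genes on the prosensory and Notch side, none was called from E14 to E16, while 10 fell and none rose from E16 to P1, where 6.56% of all genes fell. The largest falls were in Id3 (-2.30), Id2 (-1.87) and Id1 (-1.87), which block basic helix-loop-helix factors, and in Prox1 (-1.60), with a list median of -1.08 against 0.08 over all genes. Of 17 tested late effector genes, a mixed list of genes of differentiating HCs, 10 rose from E14 to E16, where 2.14% of all genes rose, and 10 from E16 to P1, where 10.8% did. The first rise was led by Chrna9 (2.5), a cholinergic receptor subunit of the efferent synapse, Pvalb (2.38), a calcium buffer, Lhfpl5 (2.36), of the transduction complex, and Myo15 (2.04), a stereocilia myosin. The second was led by Calb2 (3.85), a calcium buffer, Fscn2 (2.84), an actin cross-linker, and Otof (2.55), which serves synaptic release. Among 15 tested genes of a further list, made up of HC regulators, Notch ligands and genes such as Anxa4 (an annexin) and Mgat5b (a glycosyltransferase), 8 fell and 3 rose from P1 to P7, where 9.03% of all genes fell and 6.37% rose. Hes6, a basic helix-loop-helix gene of differentiating HCs, fell by 4.28, Anxa4 fell by 3.65 and the Notch ligand genes Dll3 and Jag2 fell by 3.03 and 2.01. Rorb (3.70), Ikzf2 (3.45), the outer HC factor Helios, and Mgat5b (1.06) rose. On this further list, 0 genes rose and 1 fell from E14 to E16, where 2.14% of all genes rose and 0.536% fell. From E16 to P1, 3 rose and 0 fell, where 10.8% of all genes rose and 6.56% fell. From P1 to P7, 0 of the prosensory and Notch genes rose and 4 fell, and 5 of the late effector genes rose and 0 fell. Of the relatives of the 6 genes, Atoh7, Gfi1b and Barhl2 had no UMI in gated HCs. Rbm38, a relative of Rbm24, was at 58.9 CPM at E14 and 12.5 CPM at P7, and no change between ages passed the test.

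The genes were first read along the gate, with cells of each age arranged by the summed level of Myo6 and Ccer2. Each gene was set against its own highest bin, since levels of different genes were not compared. At E16, in the bin just past the gate, up to 5000 CPM, Lhx3 stood at 60.4% of its highest bin, Barhl1 at 56.1%, Rbm24 at 51.5%, Pou4f3 at 48.6%, Atoh1 at 35.8% and Gfi1 at 30.4%. In this bin the libraries ran from 28.5 to 137 CPM for Lhx3, 25.6 to 216 for Barhl1 and 16.3 to 152 for Rbm24. They ran from 310 to 992 CPM for Pou4f3, 249 to 450 for Atoh1 and 7.87 to 36.0 for Gfi1. Just below the gate each gene was at 2.09% of its highest bin or less. The size of the step depended on the bins: by Myo6 alone it was smaller at E16 than at P1. Those bins count cells with Myo6 detected under 2 UMIs as just below, whatever their Ccer2, so gated HCs can be among them. Gated cells also held fewer UMIs at E16 (median 3381) than at P1 (6613), and the part of this was not tested. With bins by Myo6 alone, the E16 cells just below stood at 26.3 ± 15.9% (Rbm24) to 42.3 ± 64.2% (Gfi1) of the gated level, with Atoh1 at 31.3 ± 29.6% and Pou4f3 at 30.5 ± 24.3% (SD of the libraries' own percentages, n = 3), while those of P1 stood at 2.12 ± 1.08% (Barhl1) to 5.13 ± 3.86% (Rbm24; SD, n = 4). No order among the genes was tested in either arrangement. At P1 the same bin held Rbm24 at 85.5%, Gfi1 at 81.7%, Barhl1 at 63.6%, Pou4f3 at 62.3%, Lhx3 at 43.2% and Atoh1 at 31.9%, and every gene but Gfi1 was highest in the cells of at least 10000 CPM. At E14 the bins past the gate held 29, 14 and 17 cells with 9 or fewer UMIs of Gfi1, Lhx3 and Barhl1 each, too few to place these 3 genes. At P7 no cell reached 5000 CPM.

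**Figure D2:**
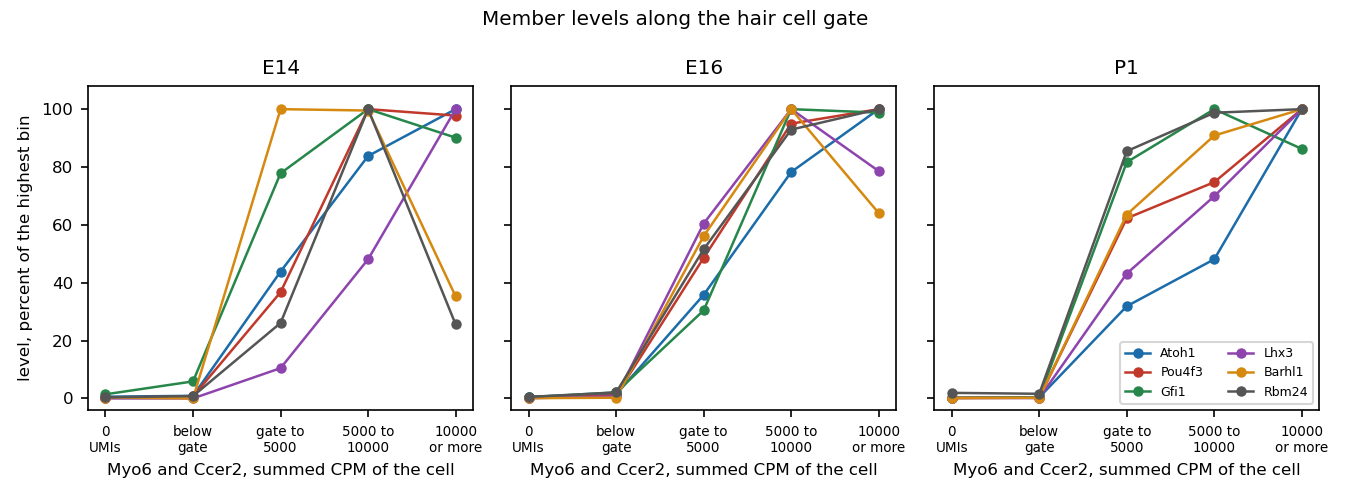
Level of each gene as a percent of its highest bin (y axis) across bins of the summed Myo6 and Ccer2 level of the cell in CPM (x axis), 1 panel each for E14, E16 and P1; each point is the mean over libraries. All 6 genes step up at the gate at E16 and P1, a step that at E16 was smaller with bins by Myo6 alone (26.3 to 42.3% of the gated level just below it, against 2.12 to 5.13% at P1), and the E14 lines of Gfi1, Lhx3 and Barhl1 rest on 9 or fewer UMIs in a bin.

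The second reading took cells outside the gate that nevertheless held at least 2 UMIs of one member, and looked for the others in them. At E14 there were 30 such cells for Atoh1 and 24 for Pou4f3, but none for Gfi1 or Lhx3, 1 for Barhl1 and 3 for Rbm24. Of the 30 Atoh1 cells, 30.0% (exact 95% interval 14.7 to 49.4%) also held Pou4f3, 86.7% held Hes6 and 70.0% held the precursor gene Sox2. Only 1 of them held Gfi1 and none held Lhx3, Barhl1 or Rbm24, where 0 of 30 allows a detected share of up to 11.6%. This limits cells with a UMI and not cells that express the gene. Lhx3 and Barhl1, unthinned as here, were found in only 13.3% and 11.7% of the gated HCs of this age. For Lhx3 and Barhl1 the 0 thus gives no order of onset. Rbm24 was more frequent, as gated HCs with Atoh1, Pou4f3 and Rbm24 and no other member already made up 18.3%. Whether Rbm24 started later was not tested. In the other cells outside the gate at E14, Pou4f3 was found in 0.697%, Hes6 in 34.8%, Sox2 in 11.7% and Cib2 in 12.4%, and the selected cells were deeper (median 5524 UMIs). Of the 24 Pou4f3 cells, 50% held Atoh1 (1.33% of the other cells), 100% held Hes6 and 75.0% held Cib2, a gene of the transduction complex, again with no Lhx3, Barhl1 or Rbm24, and 2 of them were HCs by the list.

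The same selection was made at E16 and P1, with intervals that overlapped those of E14 for Pou4f3. The 28 Atoh1 cells of E16 and the 27 of P1 held Pou4f3 in 10.7% and 11.1%, Hes6 in 64.3% and 77.8% and Sox2 in 71.4% and 63.0%, against 17.9% and 24.4% for Hes6 and 15.9% and 25.7% for Sox2 in the other cells outside the gate. The 16 Pou4f3 cells of E16 held Atoh1 in 50%, Rbm24 in 18.8% and Barhl1 in 12.5%. At P7 the 128 Pou4f3 cells outside the gate were all HCs by the list, and 86.7% held Rbm24, 56.2% Gfi1, 51.6% Barhl1, 30.5% Lhx3 and 7.8% Atoh1. Rbm24 had cells of its own: 80 cells at P1 held at least 2 UMIs of it, none of them an HC by the list, with Sox2 in 67.5% and each other member in 1.25% or less. In the 600 P1 cells positive for Fabp7 or Matn4, Rbm24 was at 33.8 CPM and the other members were between 0.219 and 2.64 CPM.

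**Figure D3:**
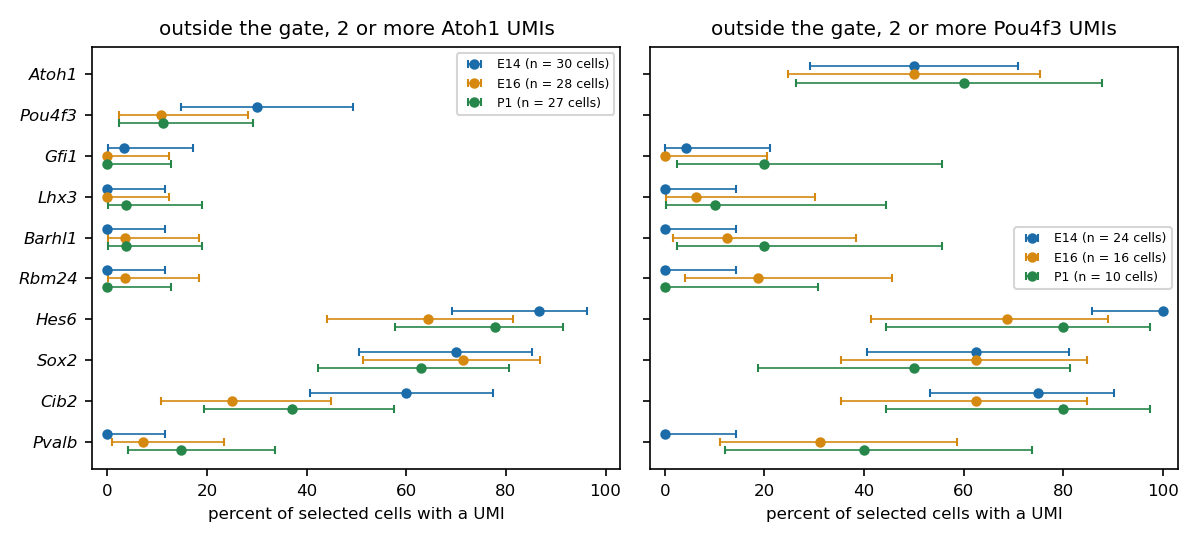
Percent of cells with at least 1 UMI (x axis) of each gene on the y axis, among cells outside the HC gate that held at least 2 UMIs of the gene named in the panel title; colours mark E14, E16 and P1 and lines the exact 95% intervals. At E14 Hes6, Sox2 and Pou4f3 are found in 86.7, 70.0 and 30.0% of the Atoh1 cells, while Lhx3, Barhl1 and Rbm24 are at 0.

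Atoh1 and Pou4f3 were also found in cells grouped by the markers of other types. At E14 the 52 cells positive for Fgfr3 or Prox1, markers of the lateral prosensory region, held Atoh1 at 53.3 and 176 CPM and Pou4f3 at 52.0 and 229 CPM in the 2 libraries. The 36 cells positive for the prosensory gene Fgf20 held Atoh1 at 10.5 and 79.3 CPM and Pou4f3 at 62.9 and 217 CPM. The libraries thus differed several-fold in both groups, on 10 to 31 UMIs of a gene. Neither group had a UMI of Lhx3, Barhl1 or Rbm24, with a limit of 9.91 and 16.2 CPM set by 3 UMIs. At E16 the 162 Fgfr3 or Prox1 cells held Atoh1 at 72.6 CPM and Pou4f3 at 45.7 CPM. At P1 the 460 such cells held 14.5 and 0.858 CPM.

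Co-detection was then counted inside the gate, after every cell was thinned to 1500 UMIs so that ages could be compared. From E14 to P7, Atoh1 was found in 56.7%, 55.4%, 52.2% and 2.84% of gated cells, and Pou4f3 in 76.7%, 71.5%, 82.0% and 83.7%. Barhl1 was found in 5%, 24.8%, 49.4% and 14.2%, and Lhx3 in 3.33%, 16.1%, 33.1% and 6.38%. Gfi1 was found in 3.33%, 7.04%, 27.7% and 24.1%, and Rbm24 in 6.67%, 18.2%, 32.5% and 34.0%. The exact 95% intervals of neighbouring ages did not overlap for Barhl1 or Lhx3 at any step. For Pou4f3 they overlapped at E14 against E16 and at P1 against P7. These intervals pool the cells of an age and leave out the spread between its libraries, so they are no test of a change with age. Unthinned, the P1 shares were 85.2% for Atoh1, 96.7% for Pou4f3, 67.8% for Gfi1, 70.4% for Lhx3, 87.4% for Barhl1 and 74.9% for Rbm24. As thinned means over libraries, the P1 shares with and without P1 replicate 1 were 51.3 and 56.1% for Atoh1, 82.5 and 85.8% for Pou4f3, and 26.0 to 49.3 and 29.5 to 53.5% for the other 4. In thinned Oc90 cells of the roof (median 3597 to 4804 UMIs) and Otoa cells (3457 to 6745 UMIs), no member passed 0.658% from E14 to P1. Unthinned, the highest member in Oc90 cells was Rbm24 at E14 (3.71% of the pooled gated level) and Pou4f3 at P1 (1.35%). The gate gene Ccer2 was at 119, 182 and 175 CPM in the Otoa cells of E14, E16 and P1. Whether such UMIs are free RNA or expression was not tested. At P7 the thinned Otoa cells held Pou4f3 in 1.64% and no other member, but unthinned Rbm24 was found in 18.0% of these 61 cells, against 80.1% of gated HCs unthinned. The intervals cover counting error only.

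**Figure D4:**
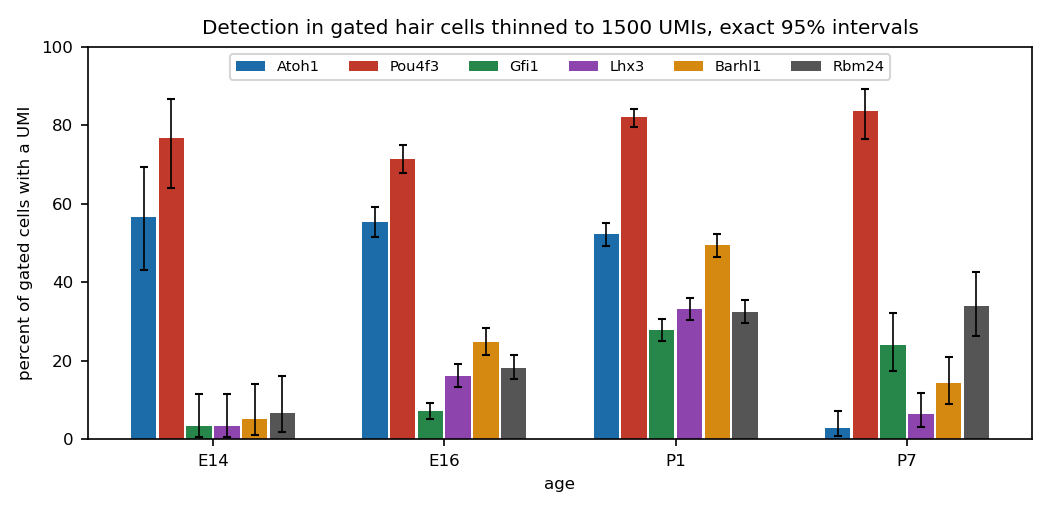
Percent of gated HCs with at least 1 UMI of each gene (y axis) at each age (x axis), after thinning to 1500 UMIs per cell; bars are exact 95% intervals over cells. Atoh1 drops from 52.2% at P1 to 2.84% at P7 while Pou4f3 stays above 70% throughout, and Barhl1 goes from 5% at E14 to 49.4% at P1.

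The most frequent combination was the Atoh1 and Pou4f3 pair at E14 and E16. Cells of P1 held more members on average, and the leading sets of P7 lacked Atoh1. At E14, 25 of the 60 thinned cells held Atoh1 and Pou4f3 alone of the 6, 14 held Pou4f3 alone, 4 Atoh1 alone and 8 none. At E16 the pair alone was again the most frequent set, with 129 of 653 cells, followed by Pou4f3 alone with 88. At P1 no set stood out, with Pou4f3 and Barhl1 in 79 of 1075 cells, Atoh1 and Pou4f3 in 75 and Pou4f3 alone in 74. At P7 it was Pou4f3 alone with 48 of 141 cells, followed by Pou4f3 with Rbm24 in 23. The mean number of members per cell was 1.52 ± 0.05, 1.94 ± 0.20, 2.72 ± 0.52 and 1.65 ± 0.02 (SD over libraries) at the 4 ages in turn. After thinning, 1.30% of the P1 cells held all 6, against 0.153% at E16 and 0% at E14 and P7. Unthinned the mean was 4.84 at P1, where 36.5% of the cells held all 6, against 0.919% at E16 and 0.709% at P7. The unthinned shares are not matched for depth (median 3381 UMIs in gated cells of E16 and 6613 in those of P1).

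Atoh1 and Pou4f3 were often found together, at shares set here beside those of each gene in all gated cells. At E14, 88.2% of the 34 cells with Atoh1 held Pou4f3 (exact 95% interval 72.5 to 96.7%), against 76.7% of all gated cells, and 65.2% of the 46 cells with Pou4f3 held Atoh1, against 56.7%. The shares were 81.5% against 71.5% and 63.2% against 55.4% at E16, and 86.5% against 82.0% and 55.0% against 52.2% at P1. At P7 all 4 cells with Atoh1 held Pou4f3, and 3.4% of the 118 cells with Pou4f3 held Atoh1. Gfi1 at E16 was found in 9.4% of the Atoh1 cells and in 8.1% of the Pou4f3 cells, and Barhl1 in 29.6% and 27.2%. The difference between the directions follows from how often each gene was found, and a gene of lower level is missed more often in a thinned cell, so these shares give no order of onset.

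Within the gated HCs of one age, cells were next ranked by the summed level of 25 late effector genes, none of them a member, and the highest tertile was compared with the lowest within each library. At E16, 4 of the 6 genes were higher in the highest tertile, where 3.53% of all genes were called higher and 2.93% lower. Barhl1 was at 288, 289 and 382 CPM in the highest tertiles of the 3 libraries against 214, 70.4 and 46.3 CPM in the lowest, a difference of 1.70 ± 0.34 (limma, adjusted p = 0.00534). Rbm24 was 1.60 ± 0.33 higher (adjusted p = 0.00631), Pou4f3 0.64 ± 0.14 (adjusted p = 0.0107) and Atoh1 0.59 ± 0.14 (adjusted p = 0.019). In every library the highest tertile lay above the lowest for these 4 genes. Lhx3 (1.18 ± 0.45, adjusted p = 0.135) and Gfi1 (0.84 ± 0.40, adjusted p = 0.259) did not pass. Lhx3 was 0.36 without E16 replicate 3 and 1.98 without replicate 1, where it was called (adjusted p = 5.93e-06), and without replicate 3 Gfi1 was 0.50 and Pou4f3 0.38. Without the gated cells that carried other markers, Lhx3 was called too (1.23, adjusted p = 0.0468). Of the lowest tertile, 41.7% of cells were HCs by the list, against 100% of the highest, and Sox2 was at 211 against 116 CPM, so the tertiles differed in the share of listed HCs, a list that shares genes with the ranking. Ranked among the HCs of the list alone, 0 of the 6 genes were called at E16 (adjusted p = 0.0863 for Barhl1 and 0.982 for Atoh1), and without E16 replicate 3 Atoh1 and Pou4f3 were not called (adjusted p = 0.0507 and 0.103), nor was Atoh1 without E16 replicate 2 (adjusted p = 0.188).

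At P1 the same ranking gave another pattern, with Atoh1 and Lhx3 lower and Gfi1 higher in the highest tertile. Here 9.62% of all genes were called higher and 11.6% lower. Atoh1 was at 377, 386, 461 and 454 CPM in the highest tertiles against 413, 1141, 802 and 1091 CPM in the lowest, and differed by -0.93 ± 0.14 (limma, adjusted p = 1.77e-06). Gfi1 was at 211, 277, 246 and 401 CPM against 54.9, 219.6, 149 and 255 CPM, a difference of 0.85 ± 0.16 (adjusted p = 9.69e-05). Each library had less Atoh1 and more Gfi1 in its highest tertile. Lhx3 was lower (-0.42 ± 0.16, adjusted p = 0.0493), a call lost without P1 replicate 2, 3 or 4 (adjusted p = 0.152 to 0.366). Pou4f3 (-0.26 ± 0.12), Barhl1 (0.30 ± 0.13) and Rbm24 (0.32 ± 0.14) did not pass. Without P1 replicate 1, Pou4f3 was called lower as well (-0.48, adjusted p = 0.000192) and the differences were -1.19 for Atoh1 and 0.55 for Gfi1. Cells with inner HC markers made up 40.8% of the highest and 6.98% of the lowest tertile, and cells with outer HC markers 46.6% and 60.9%. These marker lists share Cabp2, Slc17a8, Slc26a5 and Ocm with the ranking, so the shares are not independent of it. The median summed level of Myo6 and Ccer2 was 7531 against 11181 CPM. Sox2 was at 33.1 against 109 CPM, 100% against 89.9% of cells were HCs by the list, and 14 of 16 tested genes on the prosensory and Notch side were lower in the highest tertile, against 6 of 16 at E16. Inner minus outer differences at P1 had the same signs, at -0.24 for Atoh1, -0.28 for Lhx3 (neither called) and 0.58 for Gfi1. The part of these values in the result was not tested. Without the gated cells that also carried another cell type's markers, neither Gfi1 (1.52, limma adjusted p = 0.06) nor Lhx3 (-0.40, adjusted p = 0.637) was called. That setting left 13, 7, 9 and 82 cells in each tertile of the P1 libraries in turn. With a gate on Myo6 alone, whose cells held 1.95 members on average, all 6 genes were higher in the highest tertile at P1.

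The difference between the ages was tested itself. The lowest tertiles of the 2 ages were unlike, with 41.7% listed HCs at E16 and 89.9% at P1, and the part of this was not tested. The effect of the late effector tertile on Atoh1 was lower at P1 than at E16, a change of -1.51 ± 0.25 (limma, adjusted p = 0.00156), on Rbm24 the change was -1.28 ± 0.31 (adjusted p = 0.0276) and on Pou4f3 -0.90 ± 0.23 (adjusted p = 0.0373). These were 3 of the 6 genes, where 0.64% of all genes had a higher and 2.66% a lower effect at P1. Atoh1 was called without any 1 library, and Rbm24 and Pou4f3 each lost the call without E16 replicate 3 or P1 replicate 2, 3 or 4, and Pou4f3 also without E16 replicate 2 (adjusted p = 0.0626 to 0.137). Atoh1 lost the call with a gate on Myo6 alone (-0.98, adjusted p = 0.621) or Ccer2 alone (-0.97, adjusted p = 0.368) and with no filter on low genes (-1.51, adjusted p = 0.0567), as did the other 2. Without the gated cells that carried other markers, Atoh1 was called (-1.76, adjusted p = 0.0199) and Rbm24 (-0.36) and Pou4f3 (-1.07) were not. Without E16 replicate 1, Lhx3 (-2.40, adjusted p = 0.000548) and Barhl1 (-2.04, adjusted p = 6.05e-05) were called as well. For Gfi1 the change was 0.01 ± 0.37 and did not pass.

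**Figure D5:**
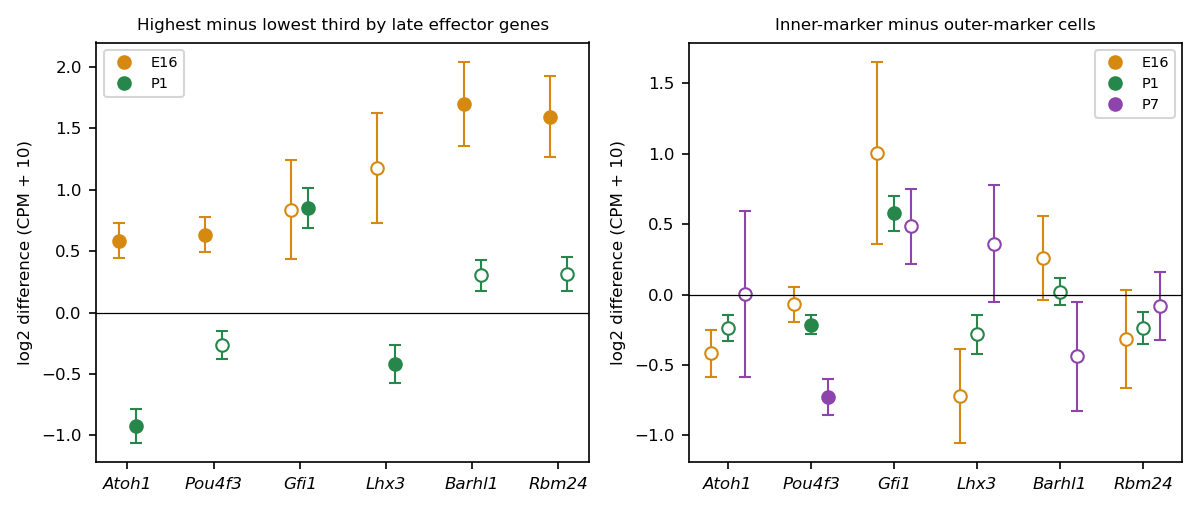
Difference on the log2(CPM + 10) scale with its SE (y axis) for each gene (x axis), for the highest minus the lowest tertile by late effector genes (left) and for inner-marker minus outer-marker HCs (right); colours mark ages and filled points passed the test. Atoh1 is above 0 at E16 (0.59) and below 0 at P1 (-0.93) between tertiles, and Gfi1 is above 0 at P1 in both panels (0.85 and 0.58). Listed HCs made up 41.7% of the lowest tertile at E16 and 89.9% at P1. Among listed HCs alone Atoh1 was not called at E16.

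Inner and outer HCs differ in place, wiring and function, and of the 6 genes Gfi1 was called between them at P1 and Pou4f3 at P1 and P7. Whether the genes differed from one another in this was not tested. Gated cells were split by 7 inner and 9 outer marker genes, giving 124 inner and 137 outer cells for E16, 194 and 641 for P1, and 46 and 83 for P7. At E14 there were 26 inner and 0 outer cells, so that age was not compared. At E16 0 of the 6 genes were called with limma, where 0.493% of all genes were called higher in inner-marker cells and 0.321% lower, with 776 of 8719 genes at an unadjusted p under 0.05. At P1, 2 of the 6 were called, where 4.9% of all genes were higher and 6.48% lower. Gfi1 was higher in inner-marker cells, 307 ± 65.5 against 212 ± 85.5 CPM (n = 4), by 0.58 ± 0.13 (adjusted p = 0.0024). Pou4f3 was lower, 1281 ± 168 against 1502 ± 306 CPM, by a difference of -0.21 ± 0.07 (adjusted p = 0.0413), a call lost without P1 replicate 2, 3 or 4 (adjusted p = 0.117 to 0.272). Without P1 replicate 1, Atoh1 (-0.33, adjusted p = 0.0381) and Lhx3 (-0.47, adjusted p = 0.0395) were called lower too. At P7, Pou4f3 alone of the 6 was called, with 1065 ± 119 against 1777 ± 289 CPM (n = 2) and a difference of -0.73 ± 0.13 (adjusted p = 0.000489), where 2.77% of all genes were higher and 3.57% lower. Gfi1 was at 249.6 ± 36.9 against 175 ± 9.98 CPM at P7 and did not pass (adjusted p = 0.354). The change of the inner and outer difference from E16 to P1 was called for 0 of the 6 genes, where 0.0445% of all genes had a higher and 0.133% a lower difference, with 1094 of 8994 genes at an unadjusted p under 0.05.

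Genes with the profile most like each member were found over 8 values, the 4 ages in gated HCs and in all other cells, each gene scaled to its highest. The measure was the root mean square difference over the 8 values among 9589 genes of at least 20 CPM. Closest to Barhl1 were Pifo (0.0134), Gm14207 (0.0206) and Drc1 (0.0282), and closest to Lhx3 were 1700007K13Rik (0.0254), Dnajb13 (0.0281) and Stmn3 (0.0298). Pifo, Drc1 and Dnajb13 are known as genes of motile or primary cilia. Lhx3 and Barhl1 were each other's closest member (0.0427). Gfi1 was closest to Xirp2 (0.0375), an actin cross-linker of HCs that is also on the late effector list, and Rbm24 to Slc8a2 (0.0397) and Pdzd7 (0.0446), a gene of the stereocilia links. Gfi1 and Rbm24 were each other's closest member too (0.122). Atoh1 had Tmem173 (0.0850) as its nearest gene and Pou4f3 had 1810041L15Rik (0.0509). These are descriptions over 8 values.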

How the data were processed

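The deposited values were, per the authors, UMIs of each cell scaled to 10000 and put on the natural log scale as ln(1 + value), made with Cell Ranger 2.1.1 and Seurat 2.0 on mm10 per the submitters' processing notes. There is 1 table per age, and each column was matched to its library by name. Values were turned back into UMIs, and 100.0% came out whole within 2%. The shallowest cell held 1499 UMIs, and library medians ran from 2478 to 5647.5 UMIs.

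HCs were gated as described, levels were means of CPM over the cells of a library, and differences between libraries were fitted on the log2(CPM + 10) scale (limma 3.58.1, R 4.3.3) for genes of at least 10 CPM, with Benjamini-Hochberg adjusted p-values and a threshold of 0.05. Within an age the library was a block, and ages were fitted together over gated cells. Precision weights were used in the age comparison in place of the unweighted fit first planned, after a test on simulated data. Replicates are separate collections. The p-values rest on the spread between them, which limma moderates toward that of other genes. With 2 libraries each at E14 and P7, the p-values within those ages rest mostly on this borrowed spread. Thinning left 1500 UMIs per cell, and the 1 cell below that depth, at E16 and outside the gate, was left out of the thinned shares. Doublets called by Scrublet in scanpy 1.11.5 (rate 0.06, score threshold 0.25; 0.321 to 3.28% of a library) were kept, with an alternative without them. The members and lists were chosen with earlier results of these data known. Nearest genes were the 3 with the smallest root mean square difference per member. Other gates, filters, pseudocounts and left-out libraries were tried. The HC list gate and the removal of gated cells with other markers were chosen after seeing the data. The fit without precision weights, the one first planned, was kept as an added alternative.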

Additional observations from a re-analysis of the deposited data

Results flagged for a closer look

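Of 42 groups of 4 P1 libraries, 4 held a library far from the other 3, where chance alone would give about 1 in 20. Barhl1 was at 323 CPM in outer-marker HCs of P1 replicate 1, the lowest of the 4. Gfi1 was at 404 CPM in inner-marker HCs of P1 replicate 4, the highest. Lhx3 was at 1.24 CPM in the other cells of P1 replicate 4, the highest. Atoh1 was detected in 37.0% of thinned gated cells of P1 replicate 1, the lowest.

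The effect of the late effector tertile differed between P1 and E16 by a test of the difference itself (limma, Benjamini-Hochberg adjusted p). The change was -1.51 for Atoh1 (adjusted p = 0.00156), -1.28 for Rbm24 (adjusted p = 0.0276) and -0.90 for Pou4f3 (adjusted p = 0.0373). None of the 3 was called with a gate on Myo6 alone, with a gate on Ccer2 alone or with no filter on low genes, and 1 to 5 of the 6 genes were called without 1 library.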

How the results depend on the processing

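Members called (of 6) are given first. HCs against other cells at E14 called 5, against 2 with a gate on Myo6 alone and 3 with a pseudocount of 1, the HC list or without gated cells carrying other markers. E16 against E14 called 1, against 5 with Myo6 alone and 2 with Ccer2 alone, a pseudocount of 1, summed UMIs, the HC list, without cells carrying other markers or without precision weights, and 1 to 2 without 1 library. P1 against E16 called 4, against 1 with Myo6 alone, 2 with Ccer2 alone, the HC list or without cells carrying other markers, and 2 to 4 without 1 library. The tertiles at E16 called 4, against 2 with a gate of 3000 CPM, 0 with the HC list and 2 to 5 without 1 library, and those at P1 called 3, against 6 with Myo6 alone and 1 without cells carrying other markers. Inner against outer cells called 0 at E16 (0 to 1 without 1 library), 2 at P1 (1 with Ccer2 alone, a pseudocount of 1, no filter or without cells over 3000 genes or 15000 UMIs; 1 to 4 without 1 library) and 1 at P7 (2 with Myo6 alone). The change of the tertile effect called 3, against 0 with Myo6 alone, Ccer2 alone or no filter, 1 with 3000 CPM, the HC list or without cells carrying other markers, and 1 to 5 without 1 library. The cause of these moves was not tested.

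Replicate numbers did not pair the libraries (correlations of same-numbered deviations -0.0936 to 0.0106). A replicate block across ages called 2 of 6 members for E16 against E14, 2 for P1 against E16 and 1 for the change of the tertile effect, with Atoh1 at -0.13 for E16 against E14 and Rbm24 at -0.40 for P7 against P1. Without the library block within an age, the tertiles called 2 at E16 and 0 at P1, and inner against outer 0 at P1 and 0 at P7.

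Members per cell were 2.45, 2.70, 4.84 and 3.11 at the 4 ages unthinned and 0.354, 1.47, 1.95 and 0.977 with Myo6 alone. They were 1.31 (E14) and 1.46 (P7) with Ccer2 alone, 1.85, 2.14 and 1.5 (E14, E16, P7) with 3000 CPM, and 1.08, 2.17 and 1.51 with the HC list. The P7 libraries held 8 and 12 cells with Ccer2 alone and 1 and 2 cells with 3000 CPM.

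Signs that turned were, for E16 against E14, Pou4f3 with Myo6 alone (1.51) or the HC list (0.21), and Atoh1 with 3000 CPM (-0.063), without cells over 3000 genes or 15000 UMIs (-0.13) or without cells carrying other markers (-0.047). For P7 against P1 they were Gfi1 with Ccer2 alone (0.10) and without cells carrying other markers (0.22), and Pou4f3 without cells over 3000 genes (0.0036) and without cells carrying other markers (0.11). For the P1 tertiles they were Atoh1 (2.80), Pou4f3 (3.83) and Lhx3 (2.63) with Myo6 alone, and Pou4f3 (0.35) and Lhx3 (0.22) with Ccer2 alone. For inner against outer they were Pou4f3 at E16 (0.040) and Barhl1 at P1 (-0.0011) with Myo6 alone, Barhl1 at P1 without cells over 3000 genes (-0.22), and at P7 Atoh1 with Myo6 alone (-0.078), a pseudocount of 1 (-0.025), without cells over 3000 genes (-0.20) or without cells carrying other markers (-0.47), Rbm24 with the HC list (0.019), and Lhx3 (-0.21) and Barhl1 (0.29) without cells carrying other markers. For the changes between ages they were Gfi1 with a pseudocount of 1 (tertiles, -0.13), Rbm24 with Myo6 alone (inner and outer, -0.10), and Atoh1 (-0.17) and Gfi1 (0.091) without cells carrying other markers (inner and outer). In that last setting the P1 libraries held 3, 1, 2 and 29 inner-marker cells, and with a minimum of 5 cells its P1 inner arm was replicate 4 alone, so it says nothing of stability and inner against outer at P1 was not run there. Without 1 library, Atoh1 ran from -0.38 to 0.48 for E16 against E14 and from -0.50 to 0.01 for P1 against E16, and for P7 against P1 Pou4f3 ran from -0.14 to 0.072 and Gfi1 from -0.36 to 0.076. Inner against outer ran from -0.35 to 1.83 for Gfi1, -0.12 to 0.00026 for Pou4f3 and -0.24 to 0.59 for Barhl1 at E16, and from -0.10 to 0.11 for Barhl1 at P1. The changes between ages ran from -0.29 to 0.36 for Gfi1 (tertiles), and for inner and outer from -1.26 to 0.92 for Gfi1, -0.17 to 0.52 for Rbm24 and -0.57 to 0.26 for Barhl1.

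Over all genes, calls for HCs at E14 went from 721 to 247 (no library block) and 2335 (no filter), at E16 from 3387 to 2075 (no library block), at P1 from 6243 to 3992 (without cells carrying other markers) and at P7 from 4974 to 1042 (Ccer2 alone). Calls for E16 against E14 went from 245 to 105 (without cells over 3000 genes or 15000 UMIs), 449 (replicate block) and 1036 (no precision weights), with 49 to 443 without 1 library. Those for P1 against E16 went from 1589 to 841 (Myo6 alone) and those for P7 against P1 from 1407 to 220 (Ccer2 alone) and 686 (replicate block). The tertiles went from 567 to 196 (HC list) and 1652 (Myo6 alone) at E16 and from 1911 to 337 (without cells carrying other markers) and 4799 (Myo6 alone) at P1. Inner against outer went from 71 to 17 (Myo6 alone) and 112 (no filter), from 1014 to 219 (no library block) and from 552 to 188 (without cells carrying other markers) and 1069 (HC list) at the 3 ages. The change of the tertile effect went from 299 to 30 without cells carrying other markers. The gate of 3000 CPM left too few cells for P7, and a left-out library left no residual spread within E14 or P7, so these were not run.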
